A study of Mus musculus with 10 samples.

Results

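Loss of cJun and ETV1 on top of COP1 loss was examined by comparing brains labelled COP1.cJun.ETV1 TKO (TKO) with brains labelled COP1 KO (KO). The comparison takes 4 of the 10 RNA sequencing libraries of the series, 2 TKO and 2 KO, chosen by genotype label alone, and covers every gene counted. The other 6 libraries are 2 labelled as a quadruple knockout that adds ETV5 (QKO), 2 of the COP1.cJun DKO (DKO) and 2 of the COP1 het control (control). All were whole mouse brains of embryos at stage E18.5, near birth, with the olfactory bulbs taken off, so TKO and KO brains share the loss of COP1 and differ, by label, at cJun and ETV1. The labels name no Cre driver, allele design, strain, litter or sex. Separate litters are not stated for the 2 libraries of a genotype, so a p-value here reflects how far these libraries spread, which may be technical.

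COP1 is the substrate receptor of a cullin-RING ubiquitin ligase that marks transcription factors for degradation. Its best-known substrates are c-JUN, a subunit of the dimeric AP-1 transcription factor, and ETV1, ETV4 and ETV5, the PEA3 subfamily of ETS factors that act downstream of FGF and ERK signalling. Loss of COP1 is known to raise the protein of these factors, which a transcript count does not measure. At the end of gestation the mouse forebrain passes from making neurons to making glia: radial glia, the neural stem cells, carry vimentin and nestin filaments, early astrocytes begin to make GFAP, and oligodendrocyte precursor cells (OPCs) express Olig1, Olig2 and Sox10.

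Jun transcript was far lower in TKO than in KO brains, while Cop1 transcript did not pass the test and Etv1, Etv4 and Etv5 transcripts were higher in TKO. Members of the glial gene lists were among those that fell: the intermediate filament genes Gfap, Vim and Nes, the receptors Egfr and Fgfr3, the astrocyte genes Aldh1l1 and Dio2, and the OPC factor Olig2. Prokr1 and Tagln2 fell as well. Apart from Jun, Etv4, Etv5 and Olig2, none of the genes just named passed between TKO and control brains. The astrocyte and radial glia lists also held members on the other side. A positive difference was seen in 8 of 18 astrocyte, 4 of 21 radial glia and 0 of 15 OPC genes, against 49.4% of all genes. None of these was called higher. Fewer genes rose, led among well-expressed named genes by Hjurp, Gm4332 and Rtraf, and no list of neuronal genes held a gene past the test. The counts were tested with the quasi-likelihood test of edgeR over 18671 genes in 1 fit of all 10 libraries, and a gene was called at a Benjamini-Hochberg adjusted p under 0.05.

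The targeted genes check the labels. Levels are given as nRPKM, the deposited read density per kilobase of gene model, scaled between libraries by the submitters with size factors, so that it is per length and comparable between libraries. Jun stood at 1.60 and 1.48 nRPKM in the TKO libraries, against 16.1 and 15.3 nRPKM in the KO libraries. The groups lay far apart, and the KO level was that of the controls, at 15 nRPKM in both. The difference was -3.35 ± 0.22 on the log2 scale (SE, edgeR adjusted p = 3.02e-05), a 10.2-fold lower level in TKO that kept its call with any 1 of the 4 libraries left out.

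Cop1 had 4.34 and 4.23 nRPKM in TKO and 3.84 and 4.16 nRPKM in KO (log2 difference 0.10 ± 0.09, edgeR adjusted p = 0.876). Both genotypes lack COP1 by label, and the control libraries had 5 and 4.74 nRPKM. A count over a whole gene takes up reads from any exon that is still transcribed, so it cannot show the loss of part of a gene.

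Etv1 ran against the simple reading of the TKO label. It had 3.80 and 3.67 nRPKM in TKO, against 1.76 and 2.29 nRPKM in KO, so both TKO libraries were above both KO libraries (0.89 ± 0.11, edgeR adjusted p = 0.00611). The control libraries had 4.82 and 4.95 nRPKM, and TKO lay -0.38 ± 0.11 from control (edgeR adjusted p = 0.306), while KO lay -1.27 ± 0.11 from control (edgeR adjusted p = 0.000455). The transcript was thus below control in KO, its difference from control in TKO missed the threshold, and whether the TKO transcript encodes ETV1 protein cannot be told from gene-level counts. Every value below is for the libraries labelled TKO. Etv5 in the libraries labelled QKO, at 3.97 and 4.11 nRPKM, was likewise not below its level in KO, at 2.65 and 2.68 nRPKM. The Etv1 call held without KO library 2 and was lost without TKO 1, TKO 2 or KO 1, where the adjusted p reached at most 0.0746.

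The relatives Etv4 and Etv5, which encode PEA3 factors that are not targeted in either genotype, moved the same way as Etv1. Etv4 had 2.09 and 2.29 nRPKM in TKO, against 1.18 and 1.2 nRPKM in KO (0.87 ± 0.13, edgeR adjusted p = 0.0147). Etv5 had 3.75 and 3.93 nRPKM in TKO, against 2.65 and 2.68 nRPKM in KO (0.53 ± 0.08, edgeR adjusted p = 0.0221). For both, TKO lay between KO and the controls, which had 5.15 and 6.08 nRPKM of Etv4 and 6.72 and 7.24 nRPKM of Etv5. TKO remained below control for Etv4 (-1.35 ± 0.12, edgeR adjusted p = 0.000527) and for Etv5 (-0.85 ± 0.08, edgeR adjusted p = 0.000694). Neither TKO over KO call survived the removal of any 1 of TKO 1, TKO 2, KO 1 or KO 2, with adjusted p up to 0.181 for Etv4 and 0.249 for Etv5.

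**Figure D1:**
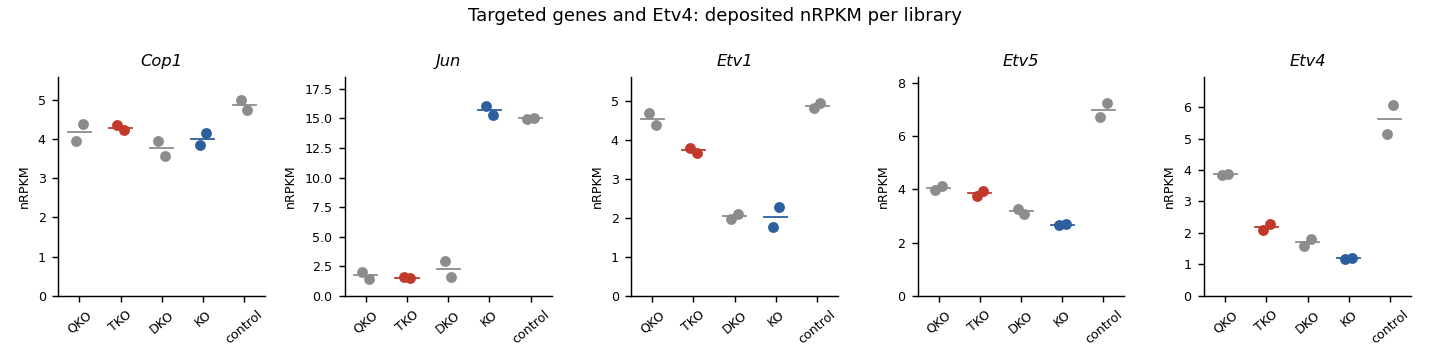
Deposited nRPKM of Cop1, Jun, Etv1, Etv5 and Etv4 in each library (points) with the group mean (line), for QKO, TKO (red), DKO, KO (blue) and control, axes starting at 0. Jun is at 1.60 and 1.48 in TKO and at 16.1 and 15.3 in KO, and Etv1, Etv4 and Etv5 have both TKO points above both KO points.

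Across the transcriptome 62 of the 18671 genes tested were called between TKO and KO, which is 0.332%. Of these 18 were higher in TKO (0.0964% of genes tested) and 44 were lower (0.236%). The falls were mostly modest, with a median log2 change of -0.82 and 32 of 44 under 2-fold, while the rises had a median of 1.43 and 11 of 18 were over 2-fold. In all 62 the TKO and KO libraries did not overlap, as they did not in 20.2% of all genes with TKO lower and 19.5% with TKO higher. At an unadjusted p under 0.05 there were 669 genes higher (3.58%) and 792 lower (4.24%), and the median log2 change of all genes was 0.00. The 4 libraries held 41113475 and 33403801 counts in TKO and 54594523 and 40019481 counts in KO, so a floor of 3 counts lies at 0.055 to 0.0898 CPM, the count scaled by library depth. Their 10 most abundant genes took 2.61 to 2.7% of the counts. All 4 had the Y-linked gene Uty (24.3 to 26.5 CPM) and Xist below 2 CPM, so the sex pattern did not differ between TKO and KO. Left without TKO 1, TKO 2, KO 1 or KO 2, the fit called 27, 21, 19 and 25 genes, and 14 of the 62 kept their call in all of these 4 fits. Those 14 include Jun, Vim, Nes, Prokr1 and Tagln2 among the lower genes and Hjurp, Gm4332 and Rec8 among the higher ones.

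**Figure D2:**
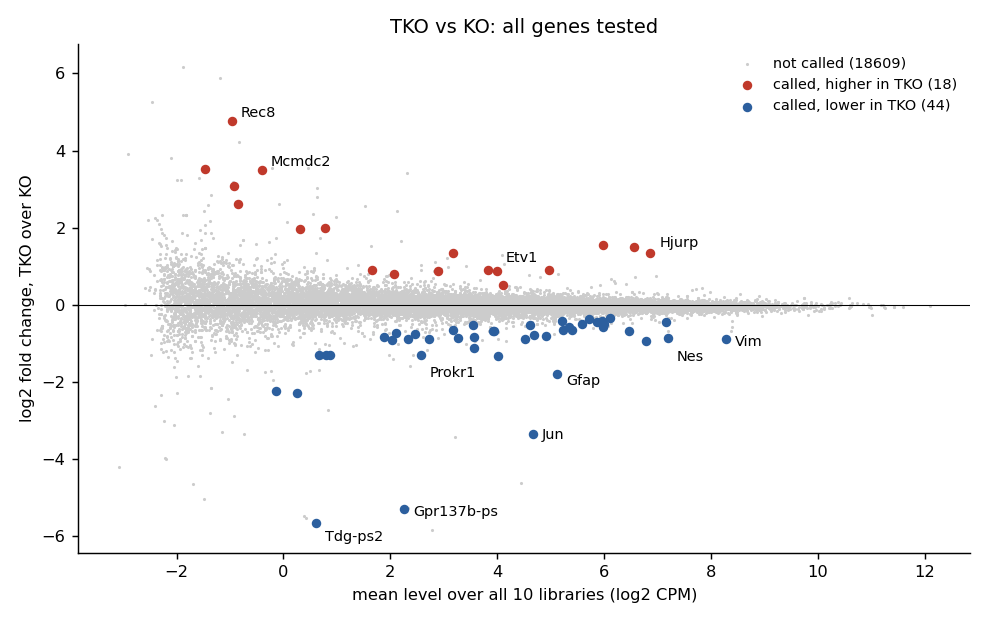
Log2 fold change, TKO over KO (vertical), against the mean level over all 10 libraries in log2 CPM (horizontal) for each of the 18671 genes tested. The 18 genes called higher are red, the 44 called lower are blue and the rest are grey, and Jun at -3.35 stands well below the glial genes Vim and Nes at -0.88 and -0.85.

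The filament genes of radial glia and reactive astrocytes fell together. Gfap, the class III filament of astrocytes, had 4.33 and 7.10 nRPKM in TKO, against 21.3 and 18.3 nRPKM in KO, a 3.49-fold lower level (-1.80 ± 0.26, edgeR adjusted p = 0.0126). The 2 TKO values lie further apart in proportion than the KO pair, but both are well below KO, and the controls had 5.16 and 4.87 nRPKM. Vim, whose product vimentin fills the radial fibre, had 130 and 125 nRPKM in TKO, against 232 and 236 nRPKM in KO (-0.88 ± 0.07, edgeR adjusted p = 0.000231). Nes, which encodes nestin of neural stem cells, had 18.8 and 17.7 nRPKM in TKO, against 30.3 and 35.4 nRPKM in KO (-0.85 ± 0.08, edgeR adjusted p = 0.000728). The controls lay slightly above TKO for both, at 152 and 145 nRPKM of Vim and 22.5 and 22.3 nRPKM of Nes, and TKO did not pass the test against control for any of the 3 genes (edgeR adjusted p = 0.832, 0.37 and 0.299 for Gfap, Vim and Nes). Because whole brains were sequenced, fewer glial cells and less RNA per glial cell cannot be told apart in these values. The same libraries also differed in HOX transcripts, which summed to 21.7 and 16.5 CPM in TKO, against 4.67 and 2 CPM in KO, and the glial values with a HOX covariate are given with the HOX genes. Vim and Nes kept their calls with any 1 library left out, while Gfap kept its call only without TKO 2 and had adjusted p of 0.193, 0.138 and 0.0607 without TKO 1, KO 1 and KO 2.

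Of 12 filament genes tested, these 3 were called and the neuronal and other members were not. The neurofilament genes had positive differences that missed the threshold: Nefl stood at 122 and 128 nRPKM in TKO, against 101 and 99.0 nRPKM in KO (0.32 ± 0.08, edgeR adjusted p = 0.19), and the median of the 12 was 0.17. The reactive glia list, which holds Gfap, Vim and Nes too, had 3 of 12 genes called lower (0.236% of all genes) and none higher. Its median was -0.31. Among its other members, Tnc, the matrix glycoprotein tenascin C, had 47.5 and 37.7 nRPKM in TKO, against 58.1 and 68.0 nRPKM in KO (-0.57 ± 0.12, edgeR adjusted p = 0.119), and Serpina3n, Timp1 and Osmr did not pass either.

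Among 21 radial glia genes, 3 were called lower (Vim, Nes and Egfr), against 0.236% of all genes, and none higher, with a median of -0.25. At an unadjusted p under 0.05, 12 were lower (4.24% of all genes) and 2 were higher (3.58% of all genes). Egfr, the EGF receptor of late progenitors, had 5.15 and 4.87 nRPKM in TKO, against 7.55 and 8.30 nRPKM in KO and 4.74 and 5.16 nRPKM in control (-0.66 ± 0.09 for TKO over KO, edgeR adjusted p = 0.008). Hopx, a marker of outer and quiescent stem cells, had 5.43 and 5.55 nRPKM in TKO, against 8.06 and 7.16 nRPKM in KO, without passing (-0.48 ± 0.11, edgeR adjusted p = 0.127). Other classical members lay the other way or close to 0. Fabp7, the radial glial fatty acid binding protein, had 564 and 640 nRPKM in TKO, against 523 and 497 nRPKM in KO (0.24 ± 0.07, edgeR adjusted p = 0.375), and Pax6, a determinant of cortical radial glia, had 9.33 and 9.47 nRPKM in TKO, against 7.52 and 8.40 nRPKM in KO (0.24 ± 0.07, edgeR adjusted p = 0.365). The list thus held members on both sides, and 17 of its 21 genes had a negative difference, against 50.6% of all genes.

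Of 18 astrocyte genes, 4 were called lower (Gfap, Aldh1l1, Fgfr3 and Dio2), against 0.236% of all genes, and none higher. At an unadjusted p under 0.05, 7 of the 18 were lower (4.24% of all genes) and 3 were higher (3.58% of all genes). Aldh1l1, a folate enzyme widely used as an astrocyte marker, had 23.6 and 22.2 nRPKM in TKO, against 38.0 and 35.3 nRPKM in KO (-0.68 ± 0.08, edgeR adjusted p = 0.00388). Fgfr3, an FGF receptor of radial glia and astrocytes, had 12.6 and 12.9 nRPKM in TKO, against 20.0 and 17.6 nRPKM in KO (-0.57 ± 0.10, edgeR adjusted p = 0.0355). Dio2, the deiodinase that makes active thyroid hormone in glia, had 1.49 and 1.57 nRPKM in TKO, against 3.34 and 3.35 nRPKM in KO (-1.13 ± 0.16, edgeR adjusted p = 0.0125). In each the TKO libraries agreed closely and sat well below KO. The other 14 lay on both sides without passing. Gjb6, a gap junction subunit, had 4.40 and 5.14 nRPKM in TKO, against 3.44 and 3.52 nRPKM in KO (0.45 ± 0.14, edgeR adjusted p = 0.343), and Aqp4 (0.29), Gja1 (0.22) and S100b (0.63) were also positive, while the glutamate transporter genes Slc1a3 (-0.24) and Slc1a2 (-0.11) and Clu (-0.16) were negative. Of the 18, 8 had a positive and 10 a negative difference, and the median was -0.07. Dio2, Fgfr3 and Egfr lost their calls without any 1 of TKO 1, TKO 2, KO 1 and KO 2 (adjusted p up to 0.219, 0.386 and 0.173), and Aldh1l1 lost its call without TKO 2 or KO 1 (up to 0.0891).

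All 15 OPC genes had a negative difference, with a median of -0.35, and 10 of the 15 were lower at an unadjusted p under 0.05, against 50.6% of all genes with a negative difference and 4.24% lower at that p. The call was reached by 2 (0.236% of all genes were called lower), among them Olig2, the transcription factor that specifies the oligodendrocyte lineage. Olig2 had 18.4 and 19.5 nRPKM in TKO, against 28.0 and 25.1 nRPKM in KO (-0.49 ± 0.09, edgeR adjusted p = 0.0482). It stayed above the controls, at 11.9 and 13 nRPKM, by 0.61 ± 0.09 (edgeR adjusted p = 0.0208), so that TKO lay between KO and control. Olig2 lost its call without any 1 of TKO 1, TKO 2, KO 1 and KO 2, with adjusted p up to 0.5.

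The neighbouring precursor genes had values on the same side but missed the threshold. Sox10, needed for the oligodendrocyte programme, had 4.85 and 4.72 nRPKM in TKO, against 9.95 and 7.61 nRPKM in KO (-0.88 ± 0.16, edgeR adjusted p = 0.0534). Olig1 had 57.2 and 67.0 nRPKM in TKO, against 108 and 88.8 nRPKM in KO (-0.67 ± 0.13, edgeR adjusted p = 0.0711). Pdgfra, the receptor for the OPC mitogen PDGF, had 17.0 and 16.7 nRPKM in TKO, against 21.5 and 20.5 nRPKM in KO (-0.32 ± 0.08, edgeR adjusted p = 0.161). In all 3, both TKO libraries lay below both KO libraries, as they did in 20.2% of all genes tested. Of 11 genes of differentiating oligodendrocytes 0 were called, 6 had a negative difference, 1 was lower at an unadjusted p under 0.05 and the median was -0.08. The difference between this list and the OPC list was not tested, and Opalin, a late myelin gene, had 0 counts in these libraries.

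**Figure D3:**
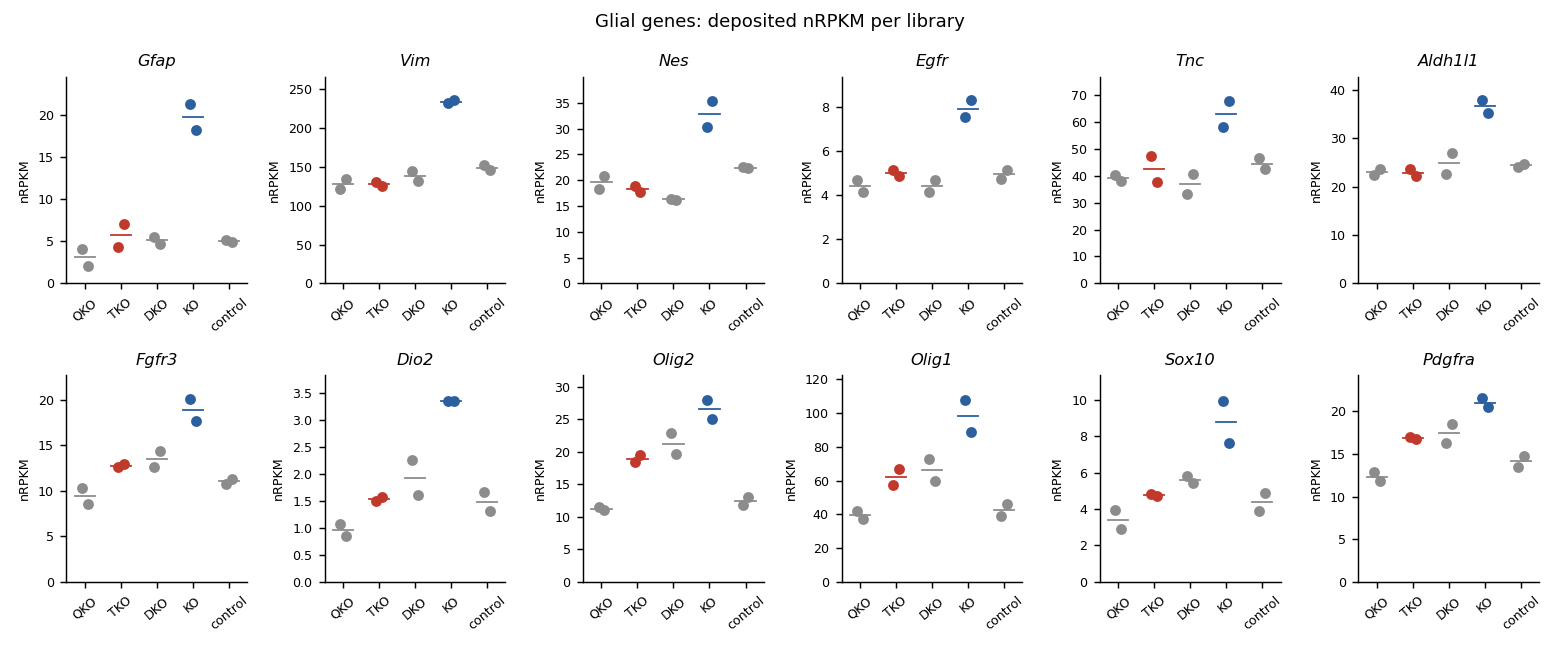
Deposited nRPKM of 12 glial genes in each library (points) with the group mean (line), for QKO, TKO (red), DKO, KO (blue) and control, axes starting at 0. Some of the lists that the genes were picked from hold members higher in TKO, while all 15 OPC genes had a negative difference. In all 12 both TKO points lie below both KO points, as they do in 20.2% of all genes tested. Olig2, at 18.4 and 19.5 nRPKM in TKO, also lies above the control points at 11.9 and 13.

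Other called genes that fell belong to none of the glial lists. Prokr1, a receptor for prokineticins, had 1.07 and 1.06 nRPKM in TKO, against 2.55 and 2.67 nRPKM in KO (-1.30 ± 0.14, edgeR adjusted p = 0.00165), and the controls had 0.902 and 1.01 nRPKM. Tagln2, an actin-binding calponin relative, had 11.7 and 12.8 nRPKM in TKO, against 22.8 and 22.7 nRPKM in KO (-0.90 ± 0.10, edgeR adjusted p = 0.00172). Both kept their calls with any 1 library left out. Chst3, a sulfotransferase of chondroitin sulfate chains, had 1.56 and 1.49 nRPKM in TKO, against 2.66 and 2.76 nRPKM in KO (-0.83 ± 0.10, edgeR adjusted p = 0.00471). Fbln2, a matrix fibulin, had 5.23 and 4.97 nRPKM in TKO, against 8.89 and 8.86 nRPKM in KO (-0.80 ± 0.13, edgeR adjusted p = 0.0316). Prr5l, a partner of the mTORC2 kinase complex, had 0.949 and 0.883 nRPKM in TKO, against 1.63 and 1.76 nRPKM in KO (-0.89 ± 0.12, edgeR adjusted p = 0.00648). For these 3, as for the filaments, the spread within a genotype was small beside the gap between genotypes. Pls1 (plastin 1, an actin bundler; -0.90 ± 0.13), Ero1b (an oxidase of the endoplasmic reticulum; -0.89 ± 0.13) and Fam167a (-0.77 ± 0.09) complete the largest named falls, with edgeR adjusted p of 0.013, 0.0117 and 0.00449. Fam167a differed from the rest in its controls, which had 6.54 and 6.32 nRPKM, against 4.62 and 4.25 nRPKM in TKO and 7.09 and 8.06 nRPKM in KO. Chst3, Fbln2, Prr5l, Pls1 and Ero1b lost their calls without any 1 of TKO 1, TKO 2, KO 1 and KO 2 (adjusted p up to 0.105, 0.398, 0.117, 0.202 and 0.146), and Fam167a lost its call without TKO 2 or KO 2 (up to 0.113).

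Among the genes that rose, the PEA3 factors were the only members of any list. Hjurp, the chaperone that loads the centromeric histone CENP-A, had 19.5 and 18.6 nRPKM in TKO, against 7.06 and 7.82 nRPKM in KO and 9.62 and 9.51 nRPKM in control (1.35 ± 0.07 for TKO over KO, edgeR adjusted p = 3.38e-06). It was also above control in TKO (1.00 ± 0.07, edgeR adjusted p = 7.67e-05). Of 23 proliferation genes 1 was called, Mcm6 of the replicative helicase, and it was lower (13.1 nRPKM in both TKO libraries, against 17.0 and 17.1 nRPKM in KO; -0.38 ± 0.06, edgeR adjusted p = 0.0261, lost without any 1 library at up to 0.245), while Mki67 had 10.9 and 8.66 nRPKM in TKO, against 9.92 and 11.1 nRPKM in KO.

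Rtraf, which encodes an RNA-binding factor that shuttles between nucleus and cytoplasm, had 24.9 and 29.8 nRPKM in TKO, against 14.2 and 14.9 nRPKM in KO (0.91 ± 0.10, edgeR adjusted p = 0.00308, lost at 0.0526 without KO 1). A pseudogene named after it, Rtraf-ps, moved the opposite way, with 5.81 and 8.57 nRPKM in TKO, against 17.3 and 18.7 nRPKM in KO (-1.33 ± 0.15, edgeR adjusted p = 0.00311). A gene and its near copy can exchange reads according to how each read was placed, so both values are uncertain, as is that of Gm4332, a pseudogene with 38.1 and 33.2 nRPKM in TKO, against 13.8 and 14.3 nRPKM in KO (1.34 ± 0.11, edgeR adjusted p = 0.000273). Snhg6, a host gene of small nucleolar RNAs, had 35.7 and 43.6 nRPKM in TKO, against 22.9 and 19.4 nRPKM in KO (0.90 ± 0.11, edgeR adjusted p = 0.00573, lost without TKO 2 or KO 2 at up to 0.0746). Irgm1, an interferon-inducible GTPase, had 1.98 and 1.82 nRPKM in TKO, against 1.00 and 1.04 nRPKM in KO (0.89 ± 0.16, edgeR adjusted p = 0.0483). Lmcd1, a LIM domain cofactor, had 2.91 and 2.50 nRPKM in TKO, against 1.70 and 1.40 nRPKM in KO (0.80 ± 0.14, edgeR adjusted p = 0.0485). Irgm1 and Lmcd1 sit just inside the threshold and lost their calls without any 1 of TKO 1, TKO 2, KO 1 and KO 2 (adjusted p up to 0.426 and 0.365).

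Beyond Jun itself, the AP-1 family showed no further call. Of 15 subunits and relatives, Jun alone was called, and the median of the list was -0.07. Junb had 2 and 2.51 nRPKM in TKO, against 1.94 and 2.17 nRPKM in KO (0.13 ± 0.15, edgeR adjusted p = 0.905), and Fosl2 had 8.12 and 8.42 nRPKM in TKO, against 8.70 and 9.18 nRPKM in KO (-0.12 ± 0.06, edgeR adjusted p = 0.741). No other dimer partner passed the test. Of 14 genes linked to the c-JUN response to nerve injury, 0 were called, and the smallest p belonged to Hrk, a proapoptotic BH3-only gene, with 7.14 and 7.24 nRPKM in TKO, against 9.41 and 9.02 nRPKM in KO (-0.36 ± 0.07, edgeR adjusted p = 0.0892). Of 16 genes that ERK signalling induces, Etv4 and Etv5 were called higher and none lower, with a median of 0.03. Dusp6, an ERK phosphatase and standard readout of the pathway, had 11.8 and 11.4 nRPKM in TKO, against 10.6 and 11.1 nRPKM in KO (0.09 ± 0.08, edgeR adjusted p = 0.86), and Spry4, an ERK inhibitor, had 3.35 and 3.18 nRPKM in TKO, against 2.77 and 2.75 nRPKM in KO (0.24 ± 0.08, edgeR adjusted p = 0.438). In all, 10 of the 16 had a positive difference and 5 were higher at an unadjusted p under 0.05 (3.58% of all genes): Etv4, Etv5, Spry1, Spry4 and Spred3. The remaining 6 had a negative difference, and 1 of them, Ccnd1, was lower at that p (4.24% of all genes). Ccnd1 had 13.25 and 13.75 nRPKM in TKO, against 17.08 and 18.42 nRPKM in KO (-0.40 ± 0.08, edgeR adjusted p = 0.104). The other 14 were not called, and their difference from the ETV genes was not tested. Of 12 FGF ligands and receptors, Fgfr3 alone was called, and the median was 0.04. In the ligase that contains COP1, 0 of 10 genes were called. Trib1, the pseudokinase adaptor that brings substrates to COP1, had 5.92 and 5.38 nRPKM in TKO, against 6.96 and 7.18 nRPKM in KO (-0.33 ± 0.08, edgeR adjusted p = 0.162), and was above control, at 3.79 and 3.76 nRPKM, by 0.59 ± 0.08 (edgeR adjusted p = 0.0124).

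Promoter sequences of genes that moved together are shown because c-JUN and the PEA3 proteins bind short, well-defined motifs. Irgm1 is shown as the only called gene whose window holds an AP-1 motif. The stretch runs from 250 bases before to 50 bases after the start, from RefSeq on GRCm38.p6, printed 5′ to 3′ on the gene's strand. Capitals mark a match to the ETS motif CCGGAA or to the AP-1 motif TGANTCA. Both strands were searched, so that TTCCGG is the ETS motif on the other strand. The 2 motifs do not overlap in these windows.
Vim promoter, chr2:13574061-13574360, plus strand: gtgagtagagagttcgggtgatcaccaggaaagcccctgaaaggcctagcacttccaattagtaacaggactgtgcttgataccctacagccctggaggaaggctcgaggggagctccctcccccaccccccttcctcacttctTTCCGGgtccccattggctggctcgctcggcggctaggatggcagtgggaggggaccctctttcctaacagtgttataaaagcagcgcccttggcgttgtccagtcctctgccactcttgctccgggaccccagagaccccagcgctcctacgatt
Egfr promoter, chr11:16751953-16752252, plus strand: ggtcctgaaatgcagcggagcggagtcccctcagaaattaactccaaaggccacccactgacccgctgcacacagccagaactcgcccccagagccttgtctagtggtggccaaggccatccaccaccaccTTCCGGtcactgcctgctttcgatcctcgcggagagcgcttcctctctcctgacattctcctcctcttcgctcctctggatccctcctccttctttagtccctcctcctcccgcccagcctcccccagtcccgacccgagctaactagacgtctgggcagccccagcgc
Gfap promoter, chr11:102897151-102897450, minus strand: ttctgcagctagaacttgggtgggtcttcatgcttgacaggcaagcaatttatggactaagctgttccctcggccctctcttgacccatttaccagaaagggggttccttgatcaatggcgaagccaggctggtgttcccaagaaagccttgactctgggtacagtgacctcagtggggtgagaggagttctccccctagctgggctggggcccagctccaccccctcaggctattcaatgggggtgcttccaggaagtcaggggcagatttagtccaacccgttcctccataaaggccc
Irgm1 promoter, chr11:48871371-48871670, minus strand: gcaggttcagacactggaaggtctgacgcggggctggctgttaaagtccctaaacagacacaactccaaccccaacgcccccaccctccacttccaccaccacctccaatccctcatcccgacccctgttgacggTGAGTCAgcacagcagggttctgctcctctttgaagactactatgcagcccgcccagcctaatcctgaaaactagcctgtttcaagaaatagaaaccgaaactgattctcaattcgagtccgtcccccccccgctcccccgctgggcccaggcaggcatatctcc

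The Vim and Egfr windows each hold 1 match to CCGGAA, and the Gfap window holds neither searched motif. ETS sites of other sequence were not searched, so the capitals do not mark every ETS site in a window. Of the 44 genes called lower, 29 had a promoter in the RefSeq table: 0 held TGANTCA, and 4 (13.8%) held CCGGAA, namely Vim, Egfr, Golim4 and Specc1. Of the 18 called higher, 10 had a promoter: 1 (10%) held TGANTCA, that of Irgm1, and 2 (20.0%) held CCGGAA, those of Hjurp and 2410018L13Rik. Among all 13097 tested genes with a promoter, 6.33% held TGANTCA and 26.7% held CCGGAA. The shares in the called sets rest on 29 and 10 promoters and were not tested, and distal sites were not looked at. Absence of these letters from a window says nothing about binding elsewhere.

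Neuronal genes did not pass in the reported fit. Of 20 genes of neuronal maturation, 12 of intermediate progenitors, 14 of cortical layers, 15 of GABAergic neurons and 14 of striatum, 0 were called, with list medians of 0.01, 0.10, -0.04, -0.12 and 0.05. At an unadjusted p under 0.05, 5 of the 15 GABAergic genes and 3 of the 14 cortical layer genes were lower (4.24% of all genes), and 8 and 7 of them lay lower in TKO without overlap (20.2% of all genes). The nearest was the striatal neuropeptide gene Tac1, with 19.1 and 22.3 nRPKM in TKO, against 14.9 nRPKM in both KO libraries (0.47 ± 0.09, edgeR adjusted p = 0.0654). DESeq2 called Tac1 and Nefl higher (DESeq2 adjusted p = 0.00988 and 0.015). So did edgeR with only the 4 TKO and KO libraries (edgeR adjusted p = 0.0417 and 0.0359). Notch1, the receptor that keeps radial glia undifferentiated, had 9.14 and 8.09 nRPKM in TKO, against 11.5 and 12.4 nRPKM in KO (-0.48 ± 0.11, edgeR adjusted p = 0.134), and 0 of 14 Notch pathway genes were called with a median of -0.16. Sonic hedgehog pathway genes gave 0 of 11, and the smallest p was that of the co-receptor Cdon (-0.44 ± 0.09, edgeR adjusted p = 0.0767). Of the 39 lists in all, 10 held a called gene and 29 held none. Those without a call included hypoxia, stress of the endoplasmic reticulum, p53 and apoptosis, and cholesterol synthesis, whose medians lay between -0.16 and 0.03. Of the 14 Notch genes 12 had a negative difference, 8 lay lower in TKO without overlap and 4 were lower at an unadjusted p under 0.05. For the 14 hypoxia genes these counts were 12, 10 and 3, and for the 11 sonic hedgehog genes 9, 4 and 3. The shares over all genes were 50.6%, 20.2% and 4.24%. Leading markers of adhering or vascular tissue gave Kcnj13 of the choroid plexus 0.37 ± 0.19, Crabp2 of the meninges 0.51 ± 0.15 and Slco1a4 of the endothelium 0.40 ± 0.13, none of them called (edgeR adjusted p = 0.729, 0.308 and 0.397). Of 14 meningeal genes 11 had a positive difference with a median of 0.23, 8 lay higher in TKO without overlap (19.5% of all genes), 4 were higher at an unadjusted p under 0.05 (3.58% of all genes) and 0 were called. Their sum was 1417 and 1403 CPM in TKO, against 1351 and 1310 CPM in KO, and the part of meningeal transcripts in the glial differences was not tested.

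**Figure D4:**
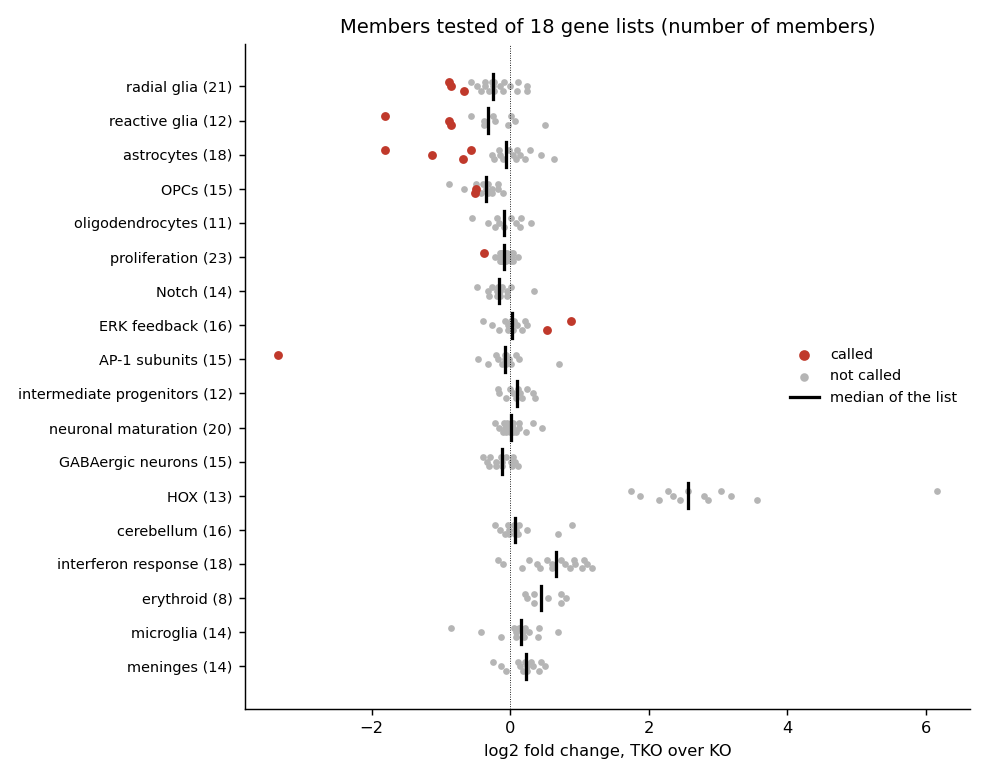
Log2 fold change, TKO over KO, of each tested member of 18 gene lists (points, red where called), with the list median (black bar) and the number of members tested in brackets. The OPC members all lie left of 0 with a median of -0.35, the radial glia median is -0.25, and the HOX members all lie right of 0 with a median of 2.57 and none called.

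Lists that mark the hindbrain end of the tissue, and blood, were also compared between TKO and KO. HOX genes, which mark hindbrain and spinal cord, summed to 21.7 and 16.5 CPM in TKO, against 4.67 and 2 CPM in KO. The sum was 35.4 and 5.79 CPM in QKO, 4.9 and 9.96 CPM in DKO and 34.9 and 47.1 CPM in control, so low sums were not confined to KO and the QKO pair differed widely. All 13 HOX genes tested had a positive difference (median 2.57), 11 were higher at an unadjusted p under 0.05 against 3.58% of all genes, and 0 were called by edgeR. DESeq2 called 3 of them higher, and edgeR called 7 without a filter on low counts and 10 with only the 4 TKO and KO libraries. Hoxb7 and Hoxb8 had no counts in TKO or KO. Hoxb2, the member with the smallest p, had 0.702 and 0.786 nRPKM in TKO, against 0.185 and 0.142 nRPKM in KO (2.14 ± 0.46, edgeR adjusted p = 0.114). The HOX sums thus separated the TKO from the KO libraries. Cerebellar and brainstem neuron lists were not called, with medians of 0.06 and 0.08. The leading cerebellar member was Atoh1 of the rhombic lip, at 0.61 and 0.802 nRPKM in TKO, against 0.4 and 0.354 nRPKM in KO.

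With the HOX mean as a covariate, 35 genes were called, 13 higher and 22 lower, and 22 of the 62 stayed among them. Gfap (-2.38 ± 0.34), Vim (-0.75 ± 0.10), Nes (-0.67 ± 0.10), Egfr (-0.81 ± 0.13) and Fgfr3 (-0.85 ± 0.09) passed in that fit, with edgeR adjusted p of 0.0203, 0.0126, 0.0293, 0.0365 and 0.0067. Sox10 passed in it too (-1.34 ± 0.17, edgeR adjusted p = 0.0131). Olig2 (-0.56 ± 0.14), Aldh1l1 (-0.72 ± 0.12), Dio2 (-1.19 ± 0.26) and Prokr1 (-1.09 ± 0.20) did not pass, with edgeR adjusted p of 0.2, 0.0552, 0.159 and 0.0797. Nor did Etv1 (0.87 ± 0.17), Etv4 (0.83 ± 0.19) and Etv5 (0.56 ± 0.12), with edgeR adjusted p of 0.108, 0.177 and 0.16. For Olig2, Aldh1l1, Dio2, Prokr1, Etv1, Etv4 and Etv5 the changes were close in size to those without the covariate, with larger standard errors. Without the covariate Gfap, Egfr, Fgfr3 and Sox10 had smaller falls, of -1.80, -0.66, -0.57 and -0.88. Vim and Nes had larger falls without it, of -0.88 and -0.85. The covariate is nearly tied to genotype in these 4 libraries, so its part in these results cannot be told apart from that of genotype.

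Genes of red blood cells summed to 301 and 312 CPM in TKO, against 210 and 248 CPM in KO. All 8 tested, of which Hbb-b1 and Hbb-b2 gave identical values, had a positive difference with a median of 0.45, without a call. Hba-a2, an alpha globin gene, had 140 and 141 nRPKM in TKO, against 62.1 and 107 nRPKM in KO. Of 14 microglial genes 0 were called, with a median of 0.16, and 11 had a positive difference (49.4% of all genes). Without overlap, 6 lay higher in TKO (19.5% of all genes) and 3 lower (20.2%). At an unadjusted p under 0.05, 4 were higher (3.58% of all genes) and 1 lower (4.24%). P2ry12, the purinergic receptor of resting microglia, had 3.61 and 3.27 nRPKM in TKO, against 2.30 and 1.93 nRPKM in KO (0.69 ± 0.15, edgeR adjusted p = 0.125). DESeq2 called it higher (DESeq2 adjusted p = 0.0364), as did edgeR with only the 4 TKO and KO libraries (edgeR adjusted p = 0.0303). Of the interferon-response genes, 16 of 18 had a positive difference (49.4% of all genes), 11 were higher at an unadjusted p under 0.05 (3.58% of all genes), the median was 0.67 and 0 were called. The list summed to 106.8 and 115.3 CPM in TKO, against 101.6 and 103.6 CPM in KO. Oasl2 had 1.00 and 1.25 nRPKM in TKO, against 0.556 and 0.747 nRPKM in KO (0.80 ± 0.20, edgeR adjusted p = 0.201), and Irf7, the master regulator of the response, had 1.07 and 1.09 nRPKM in TKO, against 0.568 and 0.624 nRPKM in KO. These genes are expressed at low levels in all 4 libraries. The part of blood, microglia or interferon transcripts in the glial differences was not tested.

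A targeted locus can carry a stretch of linked DNA with it, so the genes beside Jun and Etv1 were counted in the gene order of GRCm38.p6. Among the 50 tested genes on each side, 0 of 100 were called beside Jun on chromosome 4 and 0 of 100 beside Etv1 on chromosome 12, against 0.332% of all genes. At an unadjusted p under 0.05 there were 19 of 100 near Jun and 11 of 100 near Etv1, against 1461 of all 18671 genes. Those 1461 were made up of 669 higher genes, 3.58% of the 18671, and 792 lower genes, 4.24% of the 18671. The nearest named called genes to Etv1 on the chromosome were 2410018L13Rik and 3110053B16Rik, 70 and 78 tested genes away, both higher in TKO. 3110053B16Rik had 4.40 and 4.48 nRPKM in TKO, against 0.769 and 1.54 nRPKM in KO (1.98 ± 0.28, edgeR adjusted p = 0.0117), and 4.74 and 4.60 nRPKM in DKO.

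Setting the other genotypes beside this comparison places the differences. These comparisons share libraries, so their values are given side by side. TKO vs DKO, which tests directly whether the TKO difference from KO departs from that of DKO, called 17 genes (0.0911%). DKO vs KO called 106 genes (0.568%), KO vs control 137 (0.734%) and TKO vs control 28 (0.15%). For the glial genes the TKO and DKO differences from KO were of like size: Gfap had -1.80 ± 0.26 in TKO vs KO and -1.96 ± 0.26 in DKO vs KO, Vim -0.88 ± 0.07 and -0.77 ± 0.07, Nes -0.85 ± 0.08 and -1.02 ± 0.08, and Egfr -0.66 ± 0.09 and -0.85 ± 0.09. None of these 4 was called in TKO vs DKO, where the differences were 0.16 ± 0.26 for Gfap, -0.11 ± 0.07 for Vim, 0.17 ± 0.08 for Nes and 0.18 ± 0.09 for Egfr (edgeR adjusted p = 0.832, 0.551, 0.444 and 0.449). These p-values do not show that the genotypes act alike, since the test had 5 residual degrees of freedom.

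Etv1 is where TKO and DKO parted among the targeted genes. Etv1 had 3.80 and 3.67 nRPKM in TKO, against 1.98 and 2.11 nRPKM in DKO (0.88 ± 0.12, edgeR adjusted p = 0.0159), while DKO vs KO gave 0.01 ± 0.12. Etv4 and Etv5 did not pass between TKO and DKO (0.37 ± 0.13 and 0.28 ± 0.08, edgeR adjusted p = 0.346 and 0.291). Rtraf and Rtraf-ps passed in TKO vs DKO as well, at 0.78 ± 0.10 and -1.47 ± 0.15 (edgeR adjusted p = 0.0159 and 0.0047), with 15 and 17 nRPKM of Rtraf in DKO. Hjurp did not (0.28 ± 0.07, edgeR adjusted p = 0.24), and DKO vs KO gave 1.08 ± 0.07 for it.

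**Figure D5:**
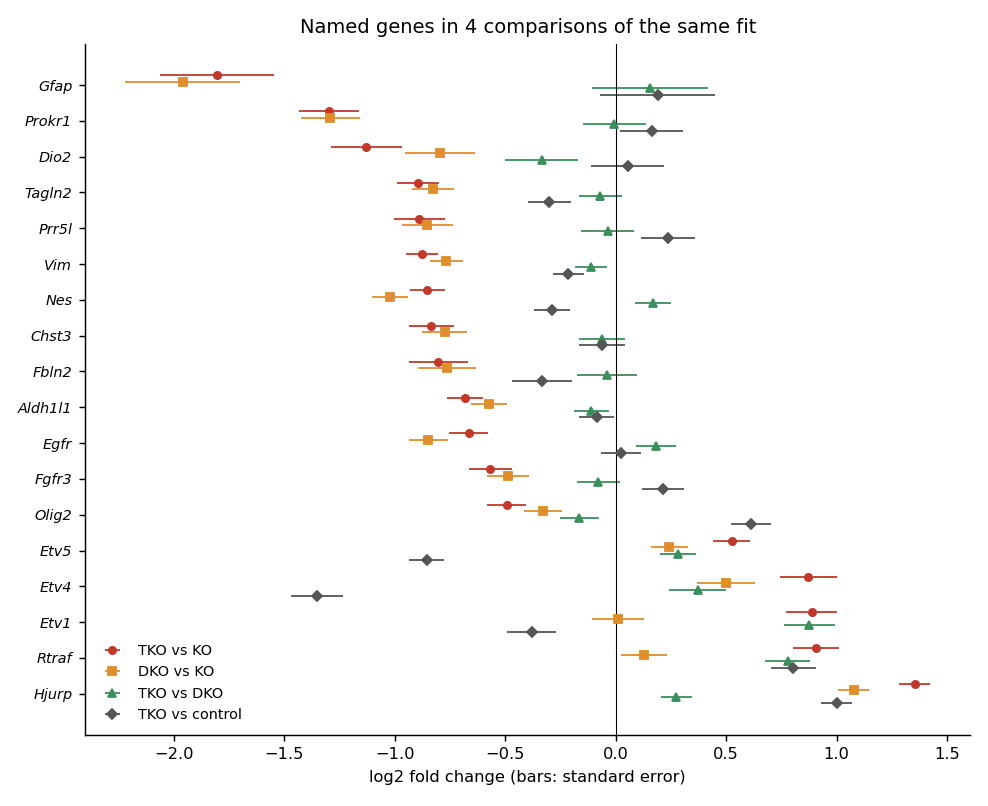
Log2 fold changes with standard errors of 18 named genes in TKO vs KO, DKO vs KO, TKO vs DKO and TKO vs control, all from 1 fit that shares libraries between comparisons. For Gfap the TKO vs KO and DKO vs KO points lie together at -1.80 and -1.96 while TKO vs DKO is at 0.16, and for Etv1 TKO vs KO and TKO vs DKO lie at 0.89 and 0.88.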

How the data were processed

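Poly(A) RNA libraries were made from 1 µg of total RNA of E18.5 brains and read as 75 bp paired ends, per the labels' protocols. Reads were aligned with GSNAP to NCBIM37, per the submitters' processing notes; no version, annotation release or strand setting is given in the sources used here. The deposited count is of reads unique to a gene, and the deposited nRPKM is a size-factor-scaled RPKM, both per the file headers. Genes carry Entrez numbers; RefSeq GRCm38.p6 named 24998 of 28059 (95.8% of counts). Testing used edgeR 4.0.16 (R 4.3.3): TMM, filterByExpr (18671 genes kept), 5 group means over 10 libraries without covariates, quasi-likelihood F test, Benjamini-Hochberg adjustment. SEs come from the F statistic. The test was checked on simulated counts. Chi-square per degree of freedom between the libraries of a group was 8.12 (TKO) and 7.87 (KO), so the libraries of a pair differ beyond sampling noise. Named genes were the targeted genes and Etv4, up to 15 called genes each way with the largest change at a mean log2 CPM of at least 1, the called members of lists, fixed glial genes and the leading member of lists without calls; others are named for illustration after their values were seen, and some genes that the rule names are not reported here. The comparison, the lists and the naming rule were chosen with earlier results of these data known. Alternatives were RLE factors, no filter, DESeq2 1.42.0, limma-voom (limma 3.58.1), fewer libraries and a HOX covariate. Of the list symbols, 3 matched no gene.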

Additional observations from a re-analysis of the deposited data

How the results depend on the processing

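With RLE factors, limma-voom (limma 3.58.1), or the fit without the 2 libraries of high Xist (1 control, 1 DKO), the number of genes called between TKO and KO was 63, 63 and 84, within 1.5 times the 62 reported. Without a filter on low counts 184 were called (69 higher, 115 lower), by DESeq2 119 (38 higher, 81 lower) and with only the 4 TKO and KO libraries 208 (72 higher, 136 lower); these hold 62, 60 and 62 of the 62. In the same order, these fits called 5, 5 and 7 OPC genes and 5, 5 and 6 radial glia genes lower. Each called 1 Notch gene (Notch1) and 1 sonic hedgehog gene (Cdon) lower. DESeq2 and the fit with only the 4 TKO and KO libraries also called the neuronal genes Tac1 and Nefl higher. With the HOX covariate 35 were called, 22 of them lower. Leaving out 1 library gave 19 to 27 calls, 7 to 13 higher and 12 to 14 lower, and the lone library of its group was then assumed to vary like the others. Of the 30 named genes called, these fits kept 11 to 13, the HOX covariate 14, limma-voom and the fit without high Xist 29 each, and the other settings all 30. Cga, at 0 counts in both KO libraries and TKO 1, had fitted changes between 0.00 (without TKO 2) and 6.99 (without TKO 1) and was not called in any. Within 100 tested genes on each side of Etv1, 2 were called, and beside Jun 0. With TGAGTCA or TGACTCA in place of TGANTCA, 4.54% of all promoters matched, and the called sets did not change. No paired analysis was possible because replicate numbers here follow the order of deposit and the labels pair no samples. Depth limits genes of a few counts: 13 called genes lie under a mean log2 CPM of 1, and 3 counts are a bound on counting error only.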

Other observations

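Genes called at low levels, outside the rule for naming and chosen after their values were seen, included some that were near absent in one genotype. Rec8, a meiotic cohesin subunit, had 60 and 55 counts in TKO, against 3 and 2 counts in KO and 6 in each control. It kept its call with any 1 library left out (edgeR adjusted p = 0.000128). Mcmdc2, a meiotic relative of the MCM helicase, had 63 and 33 counts in TKO, against 2 and 8 counts in KO, and is the immediate tested neighbour of Snhg6, which also rose. Atoh7, a proneural factor of retinal ganglion cells, had 35 and 34 counts in TKO, against 6 and 4 counts in KO. Atoh7 lost its call without any 1 of TKO 1, TKO 2, KO 1 and KO 2 (edgeR adjusted p up to 0.181). Mcmdc2 kept its call only without KO 2 (edgeR adjusted p up to 0.225), and its log2 change ran from 2.63 to 5 over these 4 fits.

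The reverse was seen in 2 pseudogenes. Gpr137b-ps had 4 and 12 counts in TKO, against 443 and 353 counts in KO; DKO and control libraries had 4 to 11 counts, and QKO had 4.48 and 4.5 nRPKM, above the 2.52 and 2.78 nRPKM of KO. Tdg-ps2 had 4 and 5 counts in TKO, against 333 and 247 counts in KO, and 4 to 8 counts in DKO and control. Both kept their calls with any 1 library left out. Gpr137b-ps and the called gene Ero1b are adjacent among tested genes, as are Akr1c19 and Marcksl1-ps4. Other called lower genes lay close together: Aldh1l1 and Fbln2 on chromosome 6 had 5 tested genes between them. On chromosome 1, 4 tested genes lay between Casq1 and Kcnj10, and 2 between Kcnj10 and Tagln2. The part of position in these differences was not tested. Akr1c19 had 0.235 and 0.107 nRPKM in TKO, against 0.864 and 0.877 nRPKM in KO. Marcksl1-ps4 had 0.258 and 0.128 nRPKM in TKO, against 0.916 and 0.956 nRPKM in KO. Marcksl1-ps4 lost its call without any 1 of the same 4 libraries (edgeR adjusted p up to 0.286), and Akr1c19 kept its call only without TKO 1 (up to 0.117).

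Of the 62 called genes, 9 have no symbol in the reference table. ID78605 had 37.5 and 35.2 nRPKM in TKO, against 12.1 and 13.4 nRPKM in KO. ID212427 had 41.0 and 38.6 nRPKM in TKO, against 12.8 and 14.2 nRPKM in KO. ID100862060 had 128 and 121 nRPKM in TKO, against 241 and 230 nRPKM in KO, close to the levels of Vim, at 130 and 125 nRPKM in TKO and 232 and 236 nRPKM in KO.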
